A study of Mus musculus with 20 samples.

Results

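The late change under IL-1b is the difference between RNA collected 3 h and 1 h after interleukin-1b (IL-1b) was added to mouse embryonic fibroblasts (MEFs), the primary connective tissue cells of C57BL/6 embryos in culture. It was measured in 4 of the 20 libraries of the series, 2 at 3 h and 2 at 1 h, chosen by agent and time alone. All cells carried the genotype crel-/-, that is, they lacked c-Rel, a subunit of the transcription factor NF-kB. At each time, 1 library came from cells with that genotype only, written crel-/- here. The other came from cells that also carry RelA-TA-KI, a knock-in at Rela, which encodes another NF-kB subunit, written knock-in here. What TA abbreviates is not stated in the labels. Cells were starved overnight in 0.5% serum and then given IL-1b at 10 ng/ml. The remaining libraries, used for comparison, are untreated cells (0 h), IL-1b at 0.5 h, and TNF or LPS at 0.5, 1 and 3 h, each once in each genotype. The labels name no separate cultures or embryos, so every p-value measures only how much these libraries scatter, which may be technical in part. With 1 library per genotype and condition, that scatter also holds differences between the genotypes in their response. A gene whose genotypes disagreed could miss the threshold for that reason. Wild-type cells are not among the samples analysed here.

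IL-1b is an alarm signal of injured and infected tissue. Its receptor, encoded by Il1r1 with the partner chain Il1rap, recruits Myd88, IRAK kinases and Traf6, which switch on the IkB kinases and so NF-kB, and the MAP kinases. Fibroblasts answer in waves. Immediate early transcription factors, whose messages are short-lived, come first, together with inhibitors that limit the signal. Secreted defence proteins, the acute phase genes, follow. Setting 3 h against 1 h therefore asks which messages of the first wave had gone and which were still building up.

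Total counts in the 4 libraries compared were 12143881 and 10381588 for crel-/- at 1 h and 3 h, and 11207711 and 12574135 for the knock-in at 1 h and 3 h. Over all 20 libraries they ran from 9248151 to 12574135. Mitochondrial transcripts held 1.39 to 1.40% of the counts in these 4 libraries. The fibroblast identity of the cells was clear in the collagen gene Col1a1, at 20190 to 23060 CPM (counts per 1e6 of the scaled library total) in the 4 libraries. All 14 macrophage markers on the list, among them Lyz2, Csf1r and C1qa, were also detected, with a summed level of 2946 to 3895 CPM. None of the 14 passed the test of the late change, their median log2 change was -0.10, and their part in the results below was not tested. In bulk RNA, fewer cells of a type and less RNA per cell cannot be told apart.

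Of 13965 genes tested, 1370 (9.81%) were higher at 3 h than at 1 h and 1003 (7.18%) were lower, by the quasi-likelihood F test of edgeR at an adjusted p of at most 0.05. A change of at least 1 on the log2 scale was reached by 164 of the higher genes (1.17%) and 168 of the lower genes (1.2%). Among annotated genes with a mean of at least 5 CPM that moved the same way in both genotypes, the largest falls included the immediate early genes Nr4a1, Fosb and Nr4a3. The largest rises included acute phase and innate effector genes such as Lcn2, Chil1 and Steap4. Lcn2, Chil1, Serpina3f, Serpina3n and Ccl11, all among these rises, met the 5 CPM mean only through the crel-/- 3 h library. Lcn2 and Chil1 were barely detected in the knock-in. The median over all genes tested was -0.01. The counts rest on each of the 4 libraries: leaving out the crel-/- 1 h library left 275 higher and 139 lower, leaving out the crel-/- 3 h library left 448 and 246, and leaving out the knock-in 1 h library left 611 and 436. Without the knock-in 3 h library they were 1693 and 1367.

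Promoters of 6 called genes are printed, 4 that rose and 2 that fell, because NF-kB, C/EBP, serum response factor and CREB are textbook regulators of such genes. Each is the 250 bases before the RefSeq start site (assembly GRCm38.p6), 5′ to 3′ on the gene's strand. Capitals mark matches to the kappaB motif of NF-kB (Steap4 at 250 and 226 bases before the start, Chil1 at 179), to the C/EBP motif TTGCNNAA on either strand (Lcn2 at 216, Saa3 at 99, Steap4 at 87), to the CArG box of serum response factor (Srf at 82 and 62), or to the CREB motif TGACGTCA (Maff at 29). The positions count back to the first base of the motif. Windows could be matched for 11 of the immediate early factors that fell. Among these, only Srf matched the CArG box and only Maff matched TGACGTCA. The Maff window was chosen because it holds TGACGTCA, and outside it Maff also matched the kappaB and C/EBP motifs.
Lcn2, chr2:32387740-32387989, minus strand: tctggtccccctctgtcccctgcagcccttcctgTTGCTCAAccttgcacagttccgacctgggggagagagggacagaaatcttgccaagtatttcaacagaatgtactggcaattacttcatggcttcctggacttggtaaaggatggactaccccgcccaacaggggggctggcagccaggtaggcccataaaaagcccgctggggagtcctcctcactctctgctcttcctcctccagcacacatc
Saa3, chr7:46715677-46715926, minus strand: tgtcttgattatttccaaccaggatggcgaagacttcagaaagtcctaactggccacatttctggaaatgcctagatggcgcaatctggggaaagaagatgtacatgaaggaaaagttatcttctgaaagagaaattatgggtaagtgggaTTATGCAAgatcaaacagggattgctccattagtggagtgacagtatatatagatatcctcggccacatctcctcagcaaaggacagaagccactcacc
Steap4, chr5:7960222-7960471, plus strand: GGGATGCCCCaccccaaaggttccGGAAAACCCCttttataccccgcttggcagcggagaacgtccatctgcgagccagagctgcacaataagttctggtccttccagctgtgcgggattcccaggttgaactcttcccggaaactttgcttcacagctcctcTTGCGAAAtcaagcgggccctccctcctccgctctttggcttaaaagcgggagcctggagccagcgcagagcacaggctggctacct
Chil1, chr1:134181906-134182155, plus strand: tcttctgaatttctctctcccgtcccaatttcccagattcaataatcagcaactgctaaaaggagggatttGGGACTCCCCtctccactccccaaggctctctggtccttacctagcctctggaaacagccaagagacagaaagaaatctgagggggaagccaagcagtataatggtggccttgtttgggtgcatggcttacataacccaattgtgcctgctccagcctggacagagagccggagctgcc
Srf, chr17:46556163-46556412, minus strand: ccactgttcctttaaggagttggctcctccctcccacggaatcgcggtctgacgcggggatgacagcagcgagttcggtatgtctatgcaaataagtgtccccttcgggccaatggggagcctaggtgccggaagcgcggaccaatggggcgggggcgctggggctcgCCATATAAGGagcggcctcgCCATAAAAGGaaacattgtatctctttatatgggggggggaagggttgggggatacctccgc
Maff, chr15:79347270-79347519, plus strand: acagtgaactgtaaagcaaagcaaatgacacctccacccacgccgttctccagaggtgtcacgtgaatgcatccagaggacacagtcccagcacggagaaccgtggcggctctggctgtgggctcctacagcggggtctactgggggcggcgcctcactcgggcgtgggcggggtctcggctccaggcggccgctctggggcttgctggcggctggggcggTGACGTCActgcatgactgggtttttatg

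RefSeq windows could be matched for 10596 of the tested genes, 13577 windows in all. Both strands were searched, and motifs were allowed to overlap. The kappaB motif was in 9.09% of all windows, against 14.6% of the 158 windows of genes higher by at least 1 and 11.5% of the 148 windows of genes lower by at least 1. The C/EBP motif was in 7.4% of all windows, 14.6% of the higher and 6.76% of the lower. The CArG box was in 1.14% of all windows, 0.633% of the higher and 3.38% of the lower, and TGACGTCA in 2.47%, 1.27% and 4.05%. Within the acute phase list, the C/EBP motif was in 5 of the 8 windows of members that rose and in 4 of the 10 windows of those that did not. Within the immediate early list, the CArG box was in 1 of the 13 windows of members that fell and in 4 of the 17 windows of those that did not. All 4 of the latter belonged to Egr2, since a gene can have several windows, so these counts are not counts of genes. These are matches of letters and not binding sites.

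**Figure D1:**
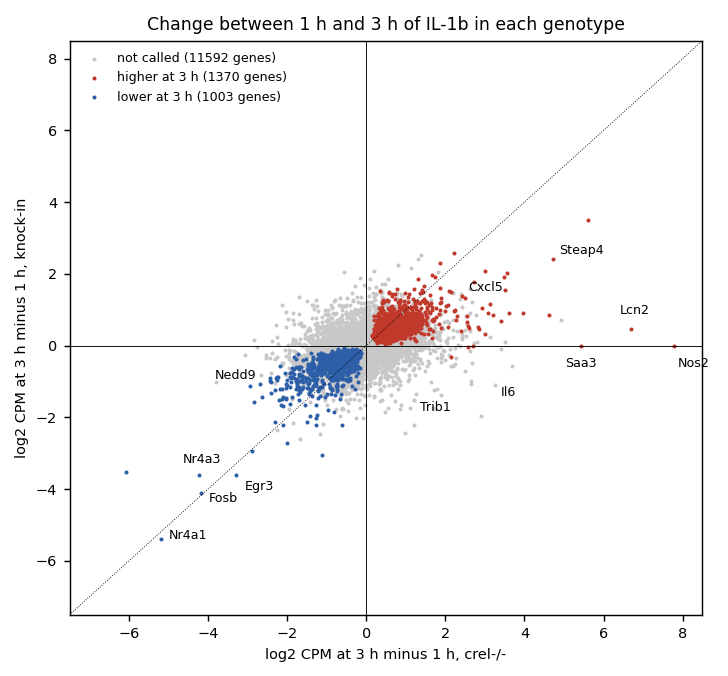
Each point is 1 of 13965 genes, with log2 CPM at 3 h minus 1 h in crel-/- cells on the x axis and in knock-in cells on the y axis (1 library at each time and genotype). The 1370 genes higher at 3 h are red and the 1003 lower are blue. Nr4a1 and Fosb lie near the dotted line of equal change, whereas Lcn2, Saa3 and Nos2 lie far to the right at a y value near 0.

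All 3 NR4A orphan nuclear receptors fell, with a median log2 change of -3.90. Nr4a1 (chromosome 15, 101266846 to 101274792) stood at 256 CPM at 1 h and 6.78 CPM at 3 h in crel-/- cells, and at 300.1 and 6.94 CPM in knock-in cells. Both 3 h levels were below the 0 h levels of 15.8 and 21.0 CPM. The fitted log2 fold change was -5.36 (SE 0.87, adjusted p = 0.0053), and without the crel-/- 3 h library the adjusted p was 0.0536. Nr4a3 went from 73.8 to 3.74 CPM and from 85.3 to 6.78 CPM, a log2 change of -3.90 (SE 0.49, adjusted p = 0.0019). Nr4a2 went from 49.0 to 16.6 CPM and from 34.9 to 11 CPM (-1.62, SE 0.15, adjusted p = 0.000457). For each of the 3 genes both 3 h levels lay under both 1 h levels. The same libraries gave the calls, so this adds no evidence.

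Of the AP-1 and ATF subunits, 4 of 8 fell. Fosb dropped from 29.7 to 1.48 CPM in crel-/- cells and from 44.2 to 2.39 CPM in knock-in cells (log2 -4.22, SE 0.61, adjusted p = 0.00297). Atf3, a stress-induced repressor, dropped from 158 to 21.0 CPM and from 138 to 17.9 CPM (-2.95, adjusted p = 0.00655, and 0.0574 without the crel-/- 1 h library). Fosl1 went from 52.8 to 12.2 CPM and from 27.2 to 5.74 CPM (-2.18, adjusted p = 0.0213). Jund changed least of the 4 (-0.40). Fos itself did not pass: it had peaked at 271 and 259 CPM at 0.5 h, was at 12.2 and 12.7 CPM at 1 h, and stood at 24.1 and 13.6 CPM at 3 h (log2 0.58, adjusted p = 0.372). Jun went from 357 to 219 CPM and from 390 to 180.1 CPM and missed the threshold as well (adjusted p = 0.131).

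Of the EGR zinc finger factors, 2 of 4 fell. Egr3 went from 94.6 to 9.54 CPM in crel-/- cells and from 49.0 to 3.83 CPM in knock-in cells (log2 -3.46, SE 0.82, adjusted p = 0.023). Egr4, not selected by the rule for named genes, had 153 and 42 reads at 1 h and 0 and 2 reads at 3 h, a ratio of 93.5 with a counting interval of 25.6 to 778. Egr1 behaved like Fos, with 1243 and 1008 CPM at 0.5 h but 84.7 and 98.2 CPM at 1 h and 87.5 and 77.9 CPM at 3 h (log2 -0.14, adjusted p = 0.904). Among the other factors of the list, Maff, a small MAF protein, went from 74.9 to 14.9 CPM and from 47.6 to 10.8 CPM (-2.25, SE 0.32, adjusted p = 0.00225). Srf, the serum response factor, went from 83.6 to 49.8 CPM and from 80.1 to 36.6 CPM (-0.93, adjusted p = 0.00159). The Krüppel-like factor genes Klf4, Klf6 and Klf10 fell too, by 0.77, 0.65 and 1.74 on the log2 scale. Over the 27 immediate early factors, 14 fell and none rose, against 7.18% lower of all genes. Their median was -0.89 (-0.75 in crel-/- and -1.43 in knock-in cells). With no filter on low counts 9 passed, and 7 when the crel-/- 1 h library was left out. Without that library Egr3 and Fosl1 missed the threshold (adjusted p = 0.137 and 0.154), as they did with the crel-/- 3 h (0.11 and 0.0859) or the knock-in 3 h library (0.0918 and 0.0855) left out.

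**Figure D2:**
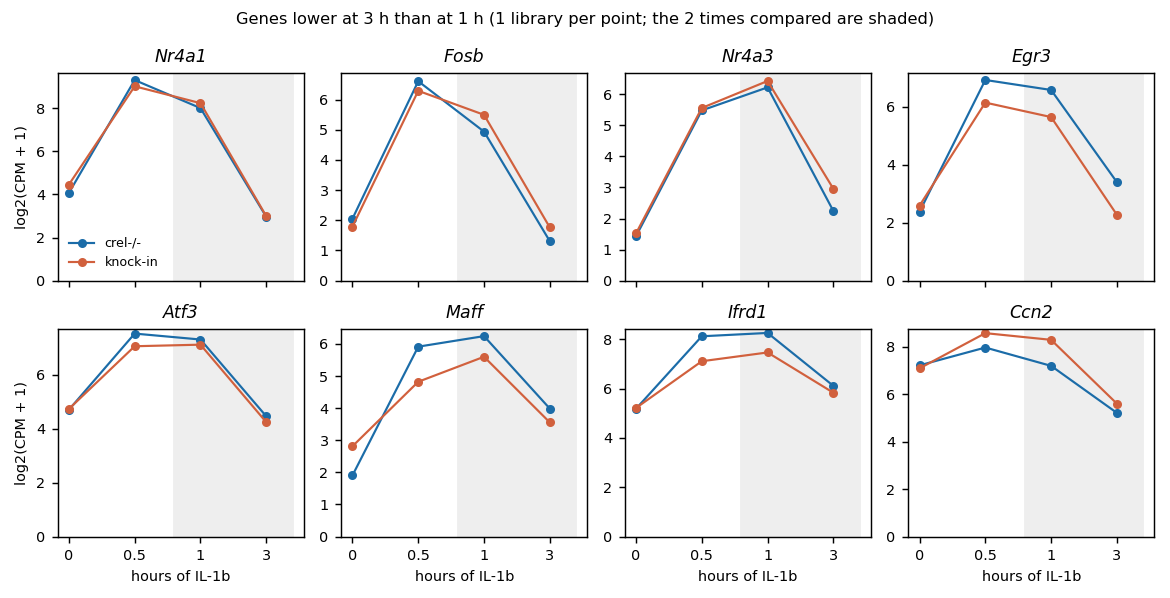
Log2(CPM + 1) of 8 genes lower at 3 h than at 1 h, at 0, 0.5, 1 and 3 h of IL-1b in crel-/- (blue) and knock-in (orange) cells, 1 library per point, with the compared times shaded. Nr4a1 and Fosb peaked at 0.5 h, Nr4a3 and Maff at 1 h, and both genotypes came down together.

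Beyond transcription factors, Ccn2, a matricellular protein and Hippo pathway target, fell from 145 to 36.0 CPM and from 311 to 47.4 CPM (log2 -2.38, SE 0.40, adjusted p = 0.00617). The 3 h levels were under those of untreated cells, 147 and 135 CPM. Ifrd1, a transcriptional co-regulator, fell from 305 to 68.2 CPM and from 176 to 56.1 CPM (-1.93, adjusted p = 0.00392). Other large falls were Map2k6, a kinase that activates p38, Fam198a and Mex3b, an RNA-binding protein, with log2 changes of -1.90, -1.88 and -1.83. Mex3b missed the threshold without the crel-/- 1 h (adjusted p = 0.126), crel-/- 3 h (0.153) or knock-in 1 h library (0.0512). Ccn2, Fosb, Ifrd1, Maff, Nr4a2 and Nr4a3 passed under all 14 alternatives tried.

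Of the 168 genes that fell by at least 1, 107 had their highest IL-1b level at 1 h and 61 at 0.5 h, on the mean of the genotypes. At 3 h, 79 of them lay more than 1 log2 unit below the untreated level, 81 lay within 1 unit of it and 8 were more than 1 unit above it. The same 1 h and 3 h libraries chose these genes, which favours a peak at 1 h over one at 3 h. The peak times and the levels at 3 h are therefore a description. Of the 164 genes that rose by at least 1, 77 were more than 1 unit above the untreated level at 3 h and 87 lay within 1 unit of it.

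The acute phase and innate effector list held several of the largest rises. Of 21 members tested, 9 rose and none fell, against 9.81% higher of all genes. Their median log2 change was 1.72, with 2.30 in crel-/- and 0.24 in knock-in cells. Lcn2 (chromosome 2, 32384633 to 32388252), which encodes lipocalin-2, a protein that binds bacterial iron carriers, went from 0.242 to 43.9 CPM in crel-/- cells but from 0.178 to 0.319 CPM in knock-in cells. Its fitted log2 change was 6.52 (SE 0.71, adjusted p = 0.00115). Saa3, serum amyloid A3, went from 0.644 to 35.6 CPM in crel-/- cells and had 0 reads at both times in the knock-in (5.72, adjusted p = 0.0024). Nos2, the inducible nitric oxide synthase, had 1 read at 1 h and 589 at 3 h in crel-/- cells and 0 in both knock-in libraries, a ratio of 614 with a counting interval of 110 to 24300. With 0 reads, the 3-count detection floor is 0.267 CPM at 1 h and 0.239 CPM at 3 h in the knock-in. These 3 rises were thus seen in the crel-/- pair of libraries, and the averaged fold change describes neither genotype.

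Of the other members that rose, Steap4, Serpina3g and Serpina3n were higher at 3 h in both genotypes, by less in the knock-in. Serpina3f, Chil1 and Hp stayed under 1 CPM in the knock-in. Steap4, a metalloreductase, went from 16.1 to 427 CPM in crel-/- cells and from 3.47 to 19.2 CPM in knock-in cells (log2 3.996, SE 0.87, adjusted p = 0.0167). The serine protease inhibitor Serpina3g went from 32.9 to 378 CPM and from 18.2 to 54.1 CPM (2.80, adjusted p = 0.0164). Serpina3n went from 4.18 to 39.9 CPM and from 2.13 to 3.99 CPM (2.55), and Serpina3f from 1.53 to 42.2 CPM and from 0.445 to 0.957 CPM (4.07). The Serpina3 genes are close copies of each other, and reads could be split among them by the counting. Chil1, a chitinase-like protein, went from 1.05 to 18.98 CPM in crel-/- cells and from 0 to 0.159 CPM, 2 reads, in the knock-in (4.11, adjusted p = 0.001). Haptoglobin, Hp, went from 1.29 to 6.29 CPM in crel-/- cells and stood at 0.445 and 0.319 CPM in the knock-in (1.72, adjusted p = 0.0348).

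Several members that did not pass also had their highest level in crel-/- cells at 3 h. Complement C3 was at 27.4 and 291 CPM in crel-/- cells and 2.31 and 2.15 CPM in the knock-in (adjusted p = 0.0508). The mitochondrial enzyme Sod2 was at 64.7 and 246 CPM against 31.0 and 44.1 CPM (adjusted p = 0.164). The pentraxin Ptx3 was at 574 and 1078 CPM against 148 and 158 CPM (adjusted p = 0.364). The summed level of the list went from 1440 to 4192 CPM in crel-/- cells and from 706 to 805 CPM in the knock-in. Of the 9 calls, none remained when either crel-/- library was left out, 4 passed when the knock-in 1 h library was, and 14 members passed when the knock-in 3 h library was. Without genotype in the model, 1 passed.

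**Figure D3:**
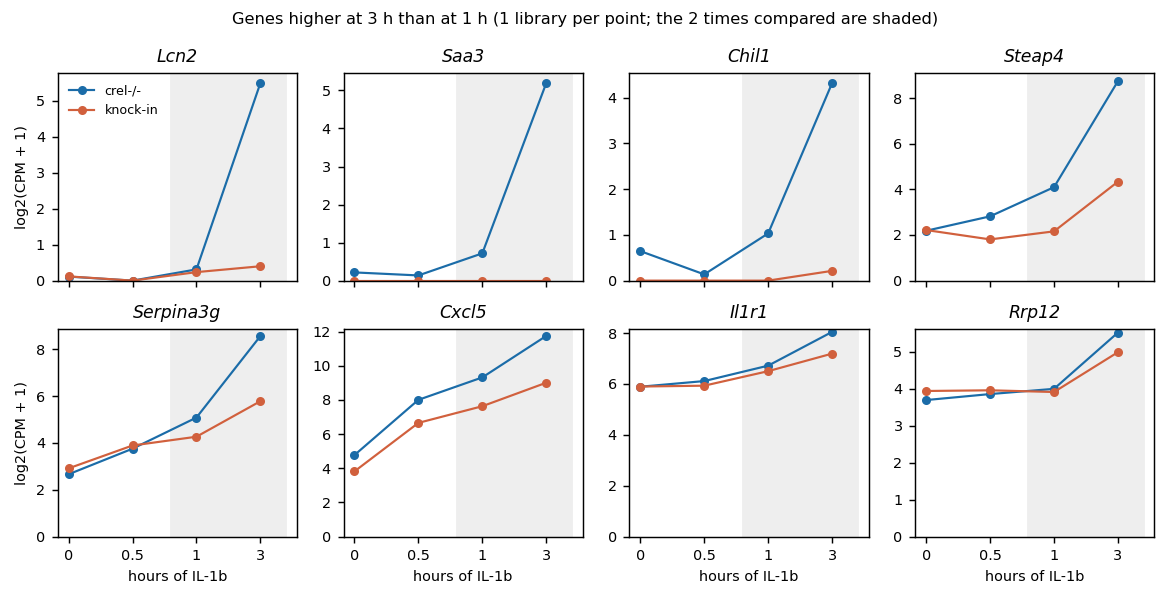
Log2(CPM + 1) of 8 genes higher at 3 h than at 1 h, at 0, 0.5, 1 and 3 h of IL-1b in crel-/- (blue) and knock-in (orange) cells, 1 library per point, with the compared times shaded. At 3 h Lcn2, Saa3 and Chil1 stood at 43.9, 35.6 and 18.98 CPM in crel-/- cells and at 0.319, 0 and 0.159 CPM in knock-in cells, Steap4 and Cxcl5 climbed in both genotypes, and Rrp12 rose between 1 h and 3 h in both.

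Among the chemokines, which draw leukocytes into tissue, 2 of 21 rose and none fell (median 0.58), a share near the 9.81% of all genes. Cxcl5, a neutrophil attractant, went from 638 to 3443 CPM in crel-/- cells and from 198 to 514 CPM in knock-in cells (log2 1.98, SE 0.42, adjusted p = 0.0142). Ccl11, eotaxin, went from 2.33 to 16.3 CPM and from 1.42 to 5.26 CPM (2.44, SE 0.44, adjusted p = 0.0049). The early chemokines Cxcl1, Cxcl2 and Ccl2 did not pass. Cxcl1 stood at 356 and 405 CPM in crel-/- cells and at 33.1 and 39.0 CPM in the knock-in (adjusted p = 0.85). Cxcl2 was at 54.1 and 36.1 CPM against 3.02 and 1.67 CPM, and Ccl2 at 747 and 973 CPM against 57.9 and 117 CPM (adjusted p = 0.684 and 0.673). With 1 library left out, their late changes ran from -1.77 to 0.23 for Cxcl2 and from 0.03 to 1.47 for Ccl2. Neither Cxcl5 nor Ccl11 passed when the crel-/- 1 h library was left out (adjusted p = 0.118 and 0.0613). Cxcl5 also missed the threshold with the crel-/- 3 h (0.105) or the knock-in 1 h library (0.0736) left out.

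Of 27 cytokines and growth factors, 1 rose and 2 fell (median 0.00), against 9.81% higher and 7.18% lower of all genes. The granulocyte growth factor Csf3 went from 0.483 to 5.11 CPM in crel-/- cells and was at 0.0889 and 0.159 CPM in the knock-in (log2 3.03, adjusted p = 0.0329). The neurotrophin gene Bdnf fell by 0.79 on the log2 scale. Csf3 lost its call without the crel-/- 1 h or knock-in 1 h library. Without the crel-/- 3 h library, where it was highest of the 4, it did not pass the filter on low counts and was not tested. Its call thus depends on that library. Bdnf missed the threshold without either knock-in library. Il6 was at 2.90 and 29.2 CPM in crel-/- cells and at 1.07 and 0.399 CPM in the knock-in. The 3-count floors of these knock-in libraries were 0.267 and 0.239 CPM, so a fall of Il6 there rests on few reads. The averaged change of Il6 did not pass (2.59, SE 0.98, adjusted p = 0.105). With the crel-/- 3 h library left out it was -1.81.

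Of the 12 largest rises under the rule for named genes, which skips predicted genes and those under a mean of 5 CPM, the ones outside the lists included Kcnn3, a calcium-activated potassium channel, B4galt5, a galactosyltransferase, Eva1c and Fam167a. Kcnn3 went from 4.35 to 50.5 CPM and from 2.31 to 9.25 CPM (log2 2.96, SE 0.49, adjusted p = 0.00405). B4galt5 went from 88.9 to 520.1 CPM and from 72.5 to 129 CPM (1.90, adjusted p = 0.0255). Fam167a rose in both genotypes, from 4.51 to 19.9 CPM and from 4.89 to 14.3 CPM (1.86, SE 0.27, adjusted p = 0.00179). Of the 12 largest rises, 1 (Fam167a) still passed with the crel-/- 1 h library left out, 3 with the crel-/- 3 h, 5 with the knock-in 1 h and all 12 with the knock-in 3 h library left out. Of the 12 largest falls, the same counts were 8, 8, 11 and 10.

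In the IL-1 receptor pathway, 2 of 20 members rose and none fell (median 0.04), again near the 9.81% of all genes. Il1r1, the signalling receptor, went from 104 to 263 CPM in crel-/- cells and from 89.5 to 145 CPM in knock-in cells, above the 0 h levels of 58.2 and 58.6 CPM (log2 1.04, SE 0.18, adjusted p = 0.00445, and 0.0527 without the crel-/- 1 h library). Il1rn, the secreted receptor antagonist, went from 96.5 to 147 CPM and from 88.6 to 105 CPM (0.42, SE 0.10, adjusted p = 0.017). None of the 14 adaptors and kinases passed, and their median was 0.00. Il1rn missed the threshold without either crel-/- library, and without the knock-in 3 h library 5 members rose.

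Of 24 NF-kB subunit, inhibitor and survival genes, 2 rose and none fell (median 0.14), a share below the 9.81% of all genes. The adaptor Traf2 went from 26.6 to 42.3 CPM and from 17.3 to 28.6 CPM (log2 0.68, adjusted p = 0.0128), and the caspase inhibitor Cflar changed by 0.34 (adjusted p = 0.0459). Neither passed without the crel-/- 1 h, crel-/- 3 h or knock-in 1 h library, nor did Cflar without the knock-in 3 h library. The feedback inhibitors did not pass. Nfkbia, which encodes IkBa, was at 499 and 320.1 CPM in crel-/- cells and at 70.2 and 71.0 CPM in the knock-in (-0.29, adjusted p = 0.756). Tnfaip3, which encodes the ubiquitin editor A20, was at 281 and 93.6 CPM against 14.9 and 11.5 CPM (-1.06, adjusted p = 0.413). In crel-/- cells both had peaked at 0.5 h, at 820.3 and 670.3 CPM.

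The next 4 lists held 1 or 2 calls each, against 7.18% lower and 9.81% higher of all genes. Among the MAP kinase feedback genes, 2 of 15 fell, the phosphatase genes Dusp10 and Dusp16 (log2 -1.70 and -0.72, adjusted p = 0.0144 and 0.00723). Dusp10 went from 19.6 to 7.96 CPM and from 36.6 to 8.93 CPM. Neither passed with the crel-/- 1 h or the knock-in 1 h library left out, and Dusp10 did not without either 3 h library. Of the mRNA decay and SOCS genes, 1 of 13 rose, Rc3h1 (0.33), which encodes roquin-1, and it missed the threshold when any 1 of the 4 libraries was left out. Of 10 prostaglandin and lipid mediator genes, 1 rose, the prostacyclin receptor gene Ptgir (1.40, adjusted p = 0.0221). It missed the threshold without the crel-/- 1 h, crel-/- 3 h or knock-in 1 h library. The cyclooxygenase gene Ptgs2 was at 61.6 and 114 CPM in crel-/- cells and at 56.1 and 17.6 CPM in knock-in cells, opposite directions, with a fitted change of 0.03. Of 8 adhesion molecules 1 rose, the integrin gene Itga5 (0.39), which was not called without the crel-/- 1 h, crel-/- 3 h or knock-in 1 h library.

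**Figure D4:**
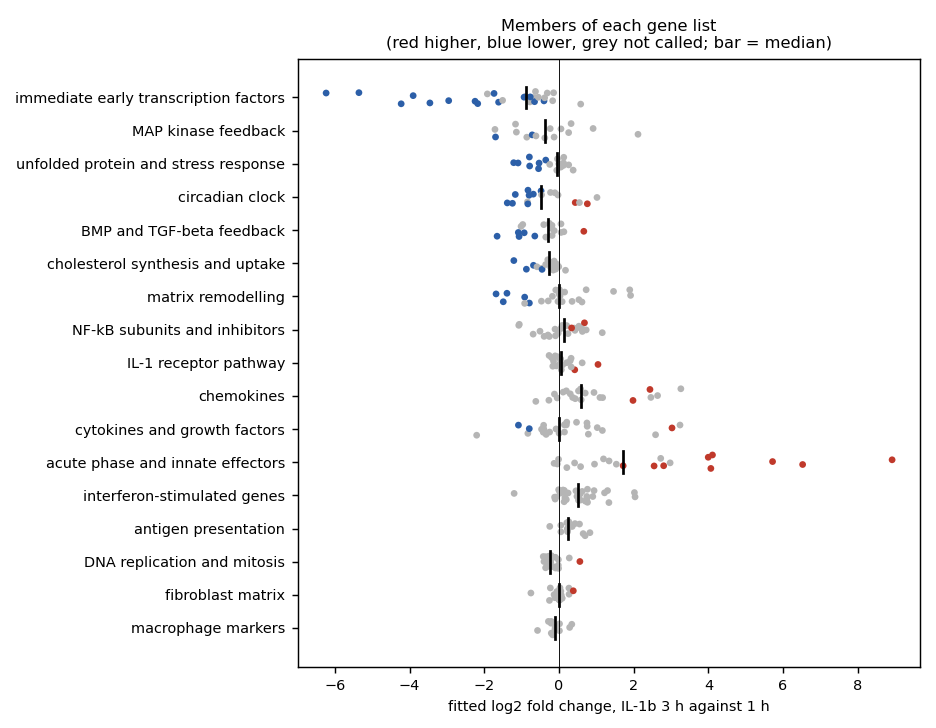
Fitted log2 fold change between 1 h and 3 h of IL-1b (x axis) for the members of 17 gene lists, 1 point per gene, red where higher, blue where lower and grey where not called, with a bar at the list's median. Blue points gather in the immediate early factors, clock and stress response lists, and the red points furthest right are acute phase genes.

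The circadian clock list had 8 falls and 2 rises among 17 members (median -0.48), against 7.18% lower and 9.81% higher of all genes. The core repressor Per1 went from 69.0 to 35 CPM in crel-/- cells and from 97.2 to 27.7 CPM in knock-in cells (log2 -1.38, SE 0.24, adjusted p = 0.00446). Per3, Tef and Nr1d2 fell by 0.80, 0.69 and 0.48, and Dbp, Bhlhe40, Bhlhe41 and Rora were the other falls. Of the rises, Cry1 (0.76) is a repressor and Clock (0.44) an activator of the cycle. Members lower were 2 with the crel-/- 1 h library left out, 3 with the crel-/- 3 h library and 5 with the knock-in 1 h library left out.

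The unfolded protein and stress response list had 7 falls and no rise among 17 members (median -0.06), against 7.18% lower of all genes. Ddit3, a stress-induced transcription factor, went from 84.2 to 47.9 CPM and from 110 to 65.4 CPM (log2 -0.78, SE 0.14, adjusted p = 0.00474). The heat shock genes Hspa1a and Hspa1b fell by 1.21 and 0.79, and are near-identical copies whose reads could be split. Atf4, the central factor of the integrated stress response, fell by 0.35 (adjusted p = 0.00754). When the crel-/- 1 h, crel-/- 3 h or knock-in 1 h library was left out, 1, 2 and 4 members were lower.

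Of 19 cholesterol synthesis and uptake genes, 4 fell and none rose (median -0.26), against 7.18% lower of all genes. Insig1, an inhibitor of the pathway, went from 62.1 to 27.2 CPM in crel-/- cells and from 65.1 to 28.1 CPM in knock-in cells (log2 -1.21, SE 0.13, adjusted p = 0.000629) and passed under all 14 alternatives. Hmgcs1, an enzyme of cholesterol synthesis, fell by 0.68 on the log2 scale.

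Of 23 matrix remodelling genes, 5 fell and none rose (median 0.00), against 7.18% lower of all genes. The aggrecan-cleaving proteases Adamts1, Adamts5 and Adamts9 fell by 1.39, 1.49 and 0.79 on the log2 scale. Tnfaip6, a hyaluronan-binding protein, went from 90.2 to 49.6 CPM in crel-/- cells and from 50.8 to 25.9 CPM in knock-in cells (log2 -0.92, adjusted p = 0.00783). The metalloproteinase Mmp3, at 17.4 and 108 CPM in crel-/- cells and 6.22 and 8.37 CPM in the knock-in, did not pass (adjusted p = 0.0838). The falls numbered 1, 2 and 3 when the crel-/- 1 h, crel-/- 3 h or knock-in 1 h library was left out.

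In the BMP and TGF-beta feedback list, 5 of 18 fell and 1 rose (median -0.30), against 7.18% lower and 9.81% higher of all genes. Id1 and Id4, inhibitors of differentiation factors, fell by 0.93 and 1.07, Id1 from 24.6 to 13.4 CPM and from 27.2 to 13.9 CPM (adjusted p = 0.00159). Skil, Bmp4 and the BMP antagonist Nog were the other falls, and the BMP antagonist Grem1 rose by 0.67 (adjusted p = 0.0204), which was lost without the crel-/- 1 h, knock-in 1 h or knock-in 3 h library. Without the crel-/- 1 h, crel-/- 3 h or knock-in 1 h library, 1, 2 and 1 members were lower. Of 10 Hippo and SRF targets 3 fell, Ccn2, Myl9 and Ankrd1, and 1 passed without the crel-/- 1 h library. Myl9 also missed the threshold without the crel-/- 3 h library (adjusted p = 0.0623). Ankrd1 (log2 -1.74, adjusted p = 0.0484) missed it without the knock-in 1 h (0.21) or knock-in 3 h library (0.457, log2 -0.74) and without genotype in the model (0.311). Neat1, a nuclear long noncoding RNA, went from 366 to 115 CPM and from 353 to 144 CPM (-1.51, adjusted p = 0.048), and missed the threshold when any 1 of the 4 libraries was left out. Mir17hg, the host transcript of a microRNA cluster, fell by 1.04 and was not called without the crel-/- 1 h, knock-in 1 h or knock-in 3 h library, and no other of the 7 RNAs of that list passed.

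The remaining lists complete the account, where 9.81% of all genes were higher and 7.18% lower. None of 32 interferon-stimulated genes and none of 14 antigen presentation genes passed (medians 0.50 and 0.25). The interferon-stimulated genes had a median of 0.84 in crel-/- and -0.04 in knock-in cells, and 13 were higher without the knock-in 3 h library. Of 25 replication and mitosis genes 1 rose, Ccne1, which encodes cyclin E1 (0.56), and 1 of 20 fibroblast matrix genes, Tnc, tenascin-C (0.38). Of 20 p53 targets, Gadd45a and Pmaip1 fell (-0.71 and -1.02) and Zmat3 rose (0.36). Of the 8 fibroblast markers, 1 rose and 1 fell. Pdgfra, a growth factor receptor, went from 238 to 632 CPM in crel-/- cells and from 234 to 355 CPM in knock-in cells (1.03, adjusted p = 0.0219), and Vim changed by -0.20. The calls of Ccne1, Tnc, Pdgfra and Vim were lost without the crel-/- 1 h, crel-/- 3 h or knock-in 1 h library, those of Ccne1 and Vim also without the knock-in 3 h library. Pmaip1 and Zmat3 missed the threshold without either crel-/- library, and Gadd45a without the knock-in 1 h library. None of the endothelial, epithelial, skeletal muscle, neural or cartilage markers tested passed.

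The late change was larger in crel-/- than in knock-in cells for most called genes, a pattern described here by counts and not tested as a whole. Genes higher by at least 1 had a median change of 1.48 in crel-/- and 0.98 in knock-in cells, with the larger change in crel-/- for 129 of 164. Genes lower by at least 1 had medians of -1.54 and -1.08, and 130 of 168 changed more in crel-/-. Among the 11592 genes not called, 7276 did. Tested gene by gene, the late change differed between the genotypes for 6 genes, 1 with a more positive change in the knock-in (0.00716% of genes) and 5 with a more negative one (0.0358%). This test has 1 library per genotype and time and takes its spread from the 14 other libraries, and at an unadjusted p under 0.05 it gave 1196 genes. DESeq2 called 6 and 24, the 6 genes of edgeR among them. Without the LPS libraries, which carry part of the spread, only Trib1 of the 6 passed (adjusted p = 0.0218), and the others were at 0.105 to 0.156. At a 5 CPM minimum 4 of the 6 passed, and with all 20 libraries 5.

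Stat3, which encodes the transcription factor activated by gp130 cytokines, went from 299.9 to 505 CPM in crel-/- cells and from 336 to 294 CPM in knock-in cells. The difference in its late change, knock-in minus crel-/-, was -0.93 (adjusted p = 0.0281). Trib1, a pseudokinase, went from 36.7 to 84.6 CPM but from 71.0 to 24.6 CPM (-2.72, adjusted p = 0.0281). The glucose transporter gene Slc2a1 went from 44.8 to 56.1 CPM and from 61.3 to 29.8 CPM (-1.35, adjusted p = 0.0281). Runx1, a transcription factor, went from 52.96 to 215 CPM and from 66.9 to 73.7 CPM (-1.86, adjusted p = 0.0414), and Smim3 from 13.1 to 54.2 CPM and from 13.0 to 13.6 CPM (-1.97, adjusted p = 0.0414). Nedd9, a docking protein, fell in both, from 80.3 to 14.9 CPM in crel-/- and from 86.3 to 42.5 CPM in knock-in cells (1.43, adjusted p = 0.0281). The acute phase gene Lcn2 was not called by this test (adjusted p = 0.402) and had few reads in the knock-in. Saa3 and Nos2 had no reads in either knock-in library. The test could therefore not call them, whatever their change in crel-/- cells, and it says nothing about their genotype difference.

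The late change under TNF, another NF-kB-activating cytokine, was measured in libraries of its own and could be compared. No gene differed between IL-1b and TNF in either direction (0% higher and 0% lower by edgeR). At an unadjusted p under 0.05, 899 genes differed, the smallest adjusted p was 0.0987, and DESeq2 called 9 higher and 20 lower. Leaving out the knock-in IL-1b 3 h library gave 20 higher genes, and leaving out the crel-/- TNF 3 h library 17 lower. Of the 164 genes higher by at least 1 under IL-1b, 155 also had a positive change under TNF (median 0.86), and of the 168 lower genes 157 had a negative one (median -0.84). Among genes not called, 8576 of 11592 had the same sign. Lcn2 reached 1.46 CPM in crel-/- cells at 3 h of TNF and Steap4 82.6 CPM. Fosb went from 52.3 to 1.54 CPM in crel-/- and from 52.6 to 10.8 CPM in knock-in cells under TNF. The immediate early list had a median of -0.12 and the acute phase list one of 1.26 under TNF.

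Against LPS, which signals through Toll-like receptor 4 and induces interferon, the late change differed widely. IL-1b gave a more positive change for 2419 genes (17.3%) and a more negative one for 2498 (17.9%). The scaling factors of the LPS 3 h libraries were 0.722 and 0.732, against 0.98 to 1.02 in the 4 IL-1b libraries, and the part of this shift in RNA composition in the counts was not tested beyond the other scaling, which gave 2287 and 2658. All 32 interferon-stimulated and all 14 antigen presentation genes were among those lower under IL-1b (medians of the late change under LPS 5.01 and 2.60). Cxcl9, an interferon-induced chemokine, went from 1.66 to 1595 CPM in crel-/- cells under LPS and from 10.5 to 16.9 CPM under IL-1b (difference -9.60, adjusted p = 0.000279). Without the crel-/- IL-1b 1 h library the difference was -7.74 and not called (adjusted p = 0.0862), and without the crel-/- IL-1b 3 h library it was -11.32. Gbp5, Has3, Ifit1bl1 and Timd4 were the other large differences in that direction. Has3 and Timd4 passed the filter on low counts only through the LPS 3 h libraries, which also set their difference. Without either of these libraries they were not tested. Gbp5 and Timd4 also missed the threshold without the crel-/- IL-1b 1 h library (0.328 and 0.0894), and Gbp5 without the crel-/- LPS 1 h library (0.0687). In the other direction Ddit4, a stress-induced inhibitor of mTORC1, went from 68.7 to 5.07 CPM under LPS and stood at 35.2 and 47.7 CPM under IL-1b in crel-/- cells (4.27, adjusted p = 2.39e-05). Bmf, Gm12258, Lyl1 and Plekhh3 followed.

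The early genes that fell under IL-1b were split by this comparison. Atf3 went under LPS from 98.2 to 314 CPM and from 155 to 385 CPM, and its late change differed from that under IL-1b by -4.44 (adjusted p = 0.0011). Nr4a3 differed by -4.88 (adjusted p = 0.000443), and Ccn2, Fosl1, Maff, Ifrd1 and Tnfaip6 differed in the same direction. Fosb and Nr4a1 were lower at 3 h than at 1 h under LPS as well, and the test did not separate them (-0.99 and -2.19, adjusted p = 0.473 and 0.169). Of the acute phase genes, Lcn2, Saa3, Chil1 and Steap4 had log2 CPM at 3 h minus 1 h of 6.37, 6.36, 4.598 and 6.03 under LPS in crel-/- cells, and their late changes were not separated from those under IL-1b (adjusted p = 0.965, 0.415, 0.661 and 0.475). For Il6, at 1.85 and 339 CPM in crel-/- and 0.749 and 183 CPM in knock-in cells under LPS, the difference was -5.18 (adjusted p = 0.0365).

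**Figure D5:**
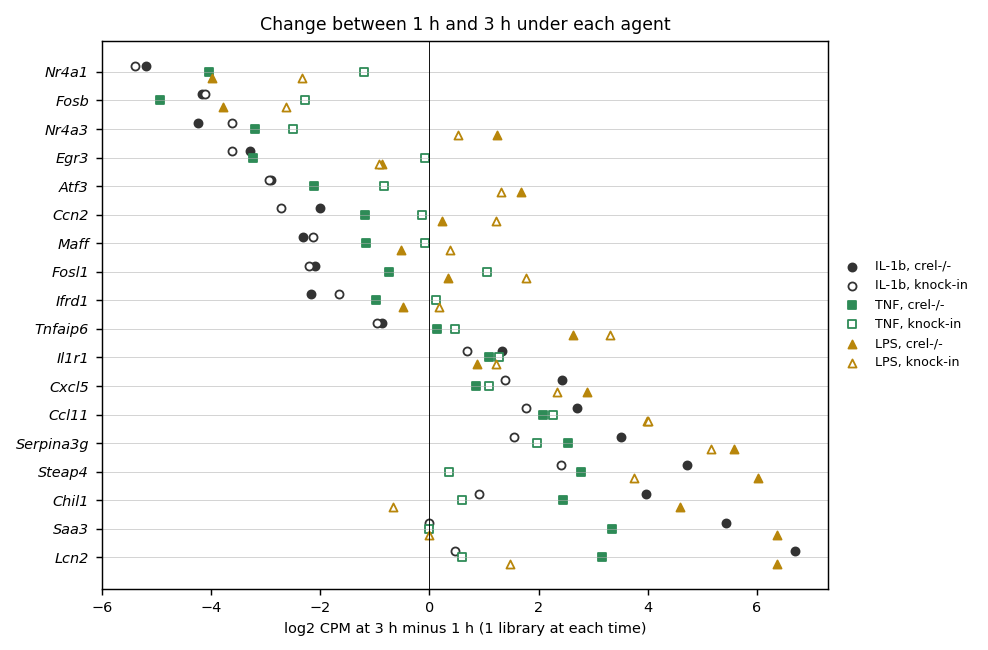
Log2 CPM at 3 h minus 1 h (x axis) for 18 genes under IL-1b (circles), TNF (squares) and LPS (triangles), filled for crel-/- and open for knock-in cells, 1 library at each time. Under LPS the triangles of Nr4a3 and Atf3 lie to the right of 0 while the circles lie to the left, and the open symbols of Lcn2, Saa3 and Chil1 lie between -0.66 and 1.48 under every agent.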

How the data were processed

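PolyA RNA was measured with a stranded kit and single-end reads of 50 nt, per the labels' protocols. Reads were handled with cutadapt 1.12, STAR, featureCounts 1.5.1 and DESeq2 on mm10, per the submitters' processing notes. How multiply matching reads and strand were treated, and which annotation was used, is not given in the sources used here. For 45706 genes and 20 libraries the authors deposited raw counts, that is, whole numbers without normalization. Gene symbols were matched for 45143 identifiers.

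A gene was tested where 2 or more libraries had 1 CPM or more, and the tested genes hold 99.9% of the counts. CPM are counts per 1e6 of the library total multiplied by its TMM factor. With edgeR 4.0.16 (R 4.3.3, limma 3.58.1), a quasi-likelihood F test was fitted to the 18 stimulated libraries with condition and genotype as terms, and p-values were adjusted by Benjamini-Hochberg over all genes tested, with a threshold of 0.05. The spread (biological coefficient of variation 10.6%) came mostly from libraries outside the contrast. Within a genotype, changes are differences in log2 CPM (prior count 2). The script was tested on simulated data. Intervals and floors of 3 counts cover counting error only, at 95% confidence where an interval is given.

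The comparison and the 29 gene lists were chosen with earlier results of these data known. Named genes are the 12 largest rises and falls among called genes with a mean of at least 5 CPM that moved the same way in both genotypes, up to 4 called members of a list with the smallest p, the 5 largest differences between agents or genotypes in each direction, and 10 genes included whatever their values. Egr4, Jun, Jund, Klf4, Klf6, Klf10, Hp, Nos2, C3, Sod2, Ptx3, Ptgs2, Mmp3, Adamts9, Bmp4, Nog, Dbp, Bhlhe40, Bhlhe41, Rora, Cry1, Clock and the macrophage and collagen markers were named after their values were seen. Alternatives were DESeq2 1.42.0, limma-voom, other scaling, other filters, other sets of libraries, no genotype term and each library left out. Some genes that the rule selects, members of 3 of the lists, are not reported here.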

Additional observations from a re-analysis of the deposited data

Results flagged for a closer look

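A test of the difference between genotypes singled out 6 genes whose change between 1 h and 3 h of IL-1b was not the same in knock-in and crel-/- cells. The difference, knock-in minus crel-/-, was 1.43 for Nedd9, -1.86 for Runx1, -1.97 for Smim3, -0.93 for Stat3, -1.35 for Slc2a1 and -2.72 for Trib1 on the log2 scale. Trib1 and Slc2a1 went up in crel-/- and down in knock-in cells, and each value rests on 1 library per genotype and time. Without the LPS libraries 1 of the 6, Trib1, stayed past the threshold, and at a 5 CPM minimum 4 did.

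A test of the difference between agents singled out named genes whose late change under IL-1b was not the same as under LPS. It was more negative under IL-1b for the immediate early genes Nr4a3 (-4.88), Atf3 (-4.44), Fosl1 (-3.27), Ccn2 (-3.10), Maff (-2.12) and Ifrd1 (-1.78). Inflammatory genes with a more negative change were Il6 (-5.18), Ccl2 (-3.78), Tnfaip3 (-3.32) and Serpina3g (-2.60). The 5 largest negative differences were Cxcl9 (-9.60), Has3 (-8.66), Ifit1bl1 (-8.31), Timd4 (-8.27) and Gbp5 (-7.60). Has3 and Timd4 were near the detection floor under IL-1b at both times, at no more than 0.563 CPM. These 2 genes were tested only because the LPS 3 h libraries carried them past the filter on low counts. The 5 largest positive differences were Gm12258 (4.33), Ddit4 (4.27), Lyl1 (4.25), Plekhh3 (4.03) and Bmf (3.95), all lower at 3 h than at 1 h of LPS in both genotypes.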

How the results depend on the processing

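The counts of genes higher and lower at 3 h than at 1 h stayed within 1.5 times under DESeq2, limma-voom, other scaling and both other filters. With the 6 IL-1b libraries alone they were 372 and 245 (71 and 82 by at least 1), and with the 4 libraries compared, which leave 1 residual degree of freedom, 7 and 27 (7 and 27). Without genotype in the model, 574 were lower and 99 higher by at least 1. Leaving out each library gave 275 to 1693 higher, 139 to 1367 lower, 45 to 349 higher by at least 1 and 39 to 387 lower by at least 1, lowest without the crel-/- 1 h and highest without the knock-in 3 h library. The cause was not tested. With the 6 IL-1b libraries alone, 2 acute phase genes were higher and 3 clock genes lower. Without genotype in the model, 1 acute phase gene was higher and 4 stress response genes lower, and with no filter 3 matrix remodelling genes were lower.

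The difference from TNF gave 9 higher and 20 lower genes with DESeq2, 3 and 4 with no filter, and 0 to 20 and 0 to 17 with 1 library left out. The genotype difference gave 2 and 10 with all 20 libraries, 6 and 24 with DESeq2, 6 and 15 with no filter, 0 and 3 without the LPS libraries, and 3 lower at a 5 CPM minimum. None of the 4 IL-1b libraries compared could be left out of it. The difference from LPS stayed within 1.5 times.

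Some values of genes that were not called changed sign. With 1 library left out, the late change ran from -1.77 to 0.23 for Cxcl2, -0.34 to 0.032 for Egr1, -0.0029 to 1.05 for Fos, -1.81 to 3.50 for Il6, -0.71 to 0.067 for Nfkbia, -0.91 to 0.16 for Slc2a1, -0.16 to 0.71 for Stat3 and -1.46 to 1.10 for Trib1. Trib1 was -0.36 with limma-voom and -0.14 with the 4 libraries compared. Of the values of named genes that were called, 855 under an alternative kept the call and 291 lost it. Of those not called, 161 stayed so with the same sign, 10 gained a call and 11 changed sign.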

Other observations

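Ribosome biogenesis genes, which make and assemble rRNA and ribosomal subunits in the nucleolus, were noticed among the rises, and a list of 65 was drawn up after the data were seen, so its counts are no independent evidence. Of the 65, 46 were higher at 3 h than at 1 h of IL-1b and none lower, with a median log2 change of 0.56 (0.79 in crel-/- and 0.34 in knock-in cells), against 9.81% higher of all genes. By role, 19 of 23 genes of the small subunit processome, 16 of 22 of large subunit assembly, 5 of 7 of the snoRNP group and 4 of 10 of RNA polymerase I rose.

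Rrp12, a ribosome export factor, went from 14.97 to 44.9 CPM in crel-/- and from 14.1 to 30.8 CPM in knock-in cells (log2 1.37, SE 0.16, edgeR adjusted p = 0.0008). Polr1b, the second largest subunit of RNA polymerase I, went from 16.7 to 44.1 CPM and from 15.02 to 31.5 CPM (1.24, SE 0.14, adjusted p = 0.0008). The untreated, 0.5 h and 1 h levels of Rrp12 lay between 11.9 and 14.97 CPM, so the rise came after 1 h in both genotypes. The abundant nucleolar gene Ncl changed by 0.30 (adjusted p = 0.0108), and Npm1 did not pass (0.07). Under TNF the list's median was 0.69 and under LPS 0.08. Without the crel-/- 1 h library 23 of the 65 rose and without the crel-/- 3 h library 25.

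Gm16685, a predicted noncoding gene that the rule for named genes skipped, was at 1.13 and 64.0 CPM in crel-/- and 0.178 and 3.91 CPM in knock-in cells at 1 h and 3 h (log2 5.53, SE 0.64, adjusted p = 0.00115).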
